A study of Rattus norvegicus with 61 samples.

Results

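Thyroid hormone transport and response genes were represented by 5 rat genes, chosen by name: Thra (NCBI Gene ID 81812), Thrb (24831), Dio2 (65162), Hr (60563) and Klf9 (117560). They are 5 of the 14231 genes counted in striatal libraries and of the 14129 genes counted in cerebellar libraries, and all 5 had enough reads to be tested in both regions. The choice of genes used no measured value of a comparison, although earlier results from these data were known when it was made. Thra and Thrb encode receptors, Dio2 an activating enzyme, Hr a corepressor and Klf9 a hormone-induced transcription factor, so none of the 5 is itself a transporter; transporters are described further on with the wider pathway.

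Thyroid hormone reaches the brain mostly as thyroxine, which type 2 deiodinase, the product of Dio2, converts to the active hormone T3 (triiodothyronine). In the rodent brain this enzyme is found chiefly in astrocytes and tanycytes, and the T3 they release acts on neighbouring neurons. T3 binds nuclear receptors encoded by Thra and Thrb, which sit on DNA as dimers with retinoid X receptors and switch between corepressors and coactivators. Hr and Klf9 are classical T3-induced genes of the rodent brain, and the HR protein is itself a corepressor that binds the receptors. Hydroxylated polychlorinated biphenyls resemble thyroid hormone in shape, and several are known to bind transthyretin, the carrier protein encoded by Ttr.

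The rats were male adolescent Sprague-Dawley animals that carried an implant under the skin from postnatal day 28 for 28 days. The implant held 0% (sham), 1% (low), 5% (medium) or 10% (high) of 4-OH-PCB52, which is a polychlorinated biphenyl with an added hydroxyl group, and all groups carried an implant. RNA of tissue punches, enriched for mRNA by poly(A) capture or rRNA removal, was sequenced from the striatum (8 sham, 6 low, 8 medium and 8 high libraries) and the cerebellum (7, 8, 8 and 8), while the series' own design text gives 6 per group. Libraries are named here by group and animal number, and each library of a region came from a different rat. Rats arrived in 4 cohorts, and the labels do not say which rat belonged to which. Exposure, as tested here, asks whether the pathway's transcripts differ between rats with a loaded implant and rats with a sham implant.

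Read totals per library ran from 5850199 to 10944066 in the striatum and from 5420458 to 10994625 in the cerebellum. At this depth Thrb, the member with the fewest cerebellar reads, had 38 to 80 reads per sham cerebellar library. Some libraries stood apart: they lay over 1 log2 unit from their region's median, either in their mean over ribosomal protein transcripts or over markers of the region's own neurons. There were 8 of 30 such libraries in the striatum (2 sham, 1 low, 2 medium, 3 high) and 10 of 31 in the cerebellum (1, 2, 4 and 3). Markers of the labelled tissue were scarce in some of them. The projection neuron list averaged 5.56 log2 CPM (counts-per-million, scaled within the region by TMM, the trimmed mean of M values) in striatal high 13, 5.31 in low 20 and 4.76 in sham 17, against a sham median of 8.68. In the library labelled cerebellum low 22, the granule cell list averaged 3.42 and the Purkinje cell list 5.25, against sham medians of 9.20 and 9.29. Member differences by region and loading are given with and without those standing apart. In bulk tissue, fewer cells of a type and less RNA per cell cannot be told apart.

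The upstream windows of both receptor genes are shown because the largest regional difference among the members is in Thrb and its partner receptor gene is read beside it, and that of Klf9 because its level did not separate the regions. Each window is the 250 bases before the RefSeq start on the GRCr8 build, printed in the direction of transcription: Thra chr10:84197891-84198140 (plus strand), Thrb chr15:10461447-10461696 (minus strand) and Klf9 chr1:230126396-230126645 (plus strand). Capitals mark the GC box GGGCGG or its reverse complement, a site type bound by Sp and Krüppel-like factors. Thra also has another RefSeq start, whose window is not printed.
Thra: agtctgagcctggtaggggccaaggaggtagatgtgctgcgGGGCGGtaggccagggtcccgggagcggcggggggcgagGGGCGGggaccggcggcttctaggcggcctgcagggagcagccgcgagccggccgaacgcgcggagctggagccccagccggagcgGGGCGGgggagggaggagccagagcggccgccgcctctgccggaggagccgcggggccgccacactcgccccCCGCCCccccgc
Thrb: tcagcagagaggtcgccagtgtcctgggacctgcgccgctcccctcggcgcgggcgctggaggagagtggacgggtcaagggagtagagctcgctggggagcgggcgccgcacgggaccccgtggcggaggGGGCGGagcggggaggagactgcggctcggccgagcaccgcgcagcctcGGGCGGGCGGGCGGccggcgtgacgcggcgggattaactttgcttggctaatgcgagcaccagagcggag
Klf9: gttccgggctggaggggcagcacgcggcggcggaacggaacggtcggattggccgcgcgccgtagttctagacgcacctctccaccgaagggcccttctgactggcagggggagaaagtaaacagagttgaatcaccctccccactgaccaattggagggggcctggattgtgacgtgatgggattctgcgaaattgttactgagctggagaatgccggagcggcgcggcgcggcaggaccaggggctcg

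The window printed for Thra held 4 GC boxes and that for Thrb also 4, of which 3 overlap one another, while that for Klf9 held 0. Over both strands, 30.5% of 33469 rat promoter windows of the same length held at least 1. The half-site AGGTCA, to which nuclear receptors of this class bind, was in none of the 5 windows of the 4 members with a RefSeq entry (Thra, Thrb, Dio2 and Klf9; Hr had none), and in 14.1% of all windows. A direct repeat of that half-site, with any 4 bases between the copies, was in 1 window of all 33469. GC made up 79.6% of the Thra window, 74.0% of the Thrb window, 63.6% of the Klf9 window and 49.6% of the Dio2 window, against a median of 51.2% over all windows. These are letter matches within the windows and say nothing of hormone response elements elsewhere.

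Brain region separated 4 of the 5 genes. Thrb stood higher in the striatum than in the cerebellum by 2.73 ± 0.21 on the log2 scale (fold change ± standard error), Thra by 0.54 ± 0.07 and Dio2 by 0.33 ± 0.12, whereas Hr was lower by −1.61 ± 0.17. Klf9 differed by 0.17 ± 0.16 and did not pass the test. The comparison took the mean of the 4 striatal groups against that of the 4 cerebellar groups in edgeR's quasi-likelihood test, with p-values adjusted by the Benjamini-Hochberg method over all 12616 genes and a threshold of 0.05. By that rule 71.6% of all genes were called, 30.8% higher and 40.8% lower in the striatum, so that 4 called members of 5 is near the background share. That comparison did not pair the libraries of a rat. With the animal as a replicate block (29 rats) Thrb stood at 2.85 ± 0.20, Thra at 0.52 ± 0.07 and Dio2 at 0.30 ± 0.12. Hr stood at −1.53 ± 0.15 and Klf9 at 0.25 ± 0.16, with the same 4 genes called.

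Thrb ranged over 26.2, 76.4 and 123 CPM (lowest, median and highest) in the 30 striatal libraries, against 0.611, 9.61 and 82.3 CPM in the 31 cerebellar libraries, with both regions on one scale. All 29 rats sampled in both regions had more Thrb in the striatum, with a median ratio of 7.91, and the adjusted p was 4.09e-17. The regions overlapped through a single cerebellar library, medium 40, which lay above 18 of 30 striatal libraries. In sham rats alone the log2 difference was 3.16 ± 0.25, with an adjusted p of 7.03e-08 in edgeR. Over all loadings but without the libraries standing apart it was 2.95 ± 0.11.

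Thra ranged over 303, 607 and 825 CPM in striatal libraries, against 352, 394 and 598 CPM in cerebellar libraries, with an adjusted p of 4.13e-09 from edgeR. Thra was higher in the striatum in 26 of 29 rats, and the other 3 rats had it lower there. The difference was 0.67 ± 0.04 without the libraries standing apart. Libraries of the regions overlapped, since 14 of 30 striatal libraries lay below the highest cerebellar one. The counts add up the Thra transcripts, which encode a T3-binding receptor and a variant that does not bind T3. The gene also overlaps Nr1d1 (252917), a clock repressor on the opposite strand, and the strand setting of the counting is not given in the sources used here, so reads of their overlap cannot be told apart. Nr1d1 ranged over 184, 249 and 317 CPM in striatal libraries, against 157, 239 and 291 CPM in cerebellar libraries, and did not pass the test (0.08 ± 0.06, adjusted p = 0.216 in edgeR).

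Dio2 ranged over 23.6, 50.1 and 82.1 CPM in striatal libraries, against 16.6, 42.5 and 54.1 CPM in cerebellar libraries. It was higher in the striatum in 21 of 29 rats, with an adjusted p of 0.0126 in edgeR, and most libraries of the regions overlapped. The call was lost in sham rats alone, where the difference was 0.14 ± 0.25 (adjusted p = 0.682), and held without the libraries standing apart at 0.25 ± 0.09 (adjusted p = 0.0139).

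Hr ranged over 22.03, 53.1 and 105 CPM in striatal libraries, against 36.4, 196 and 259 CPM in cerebellar libraries. It was lower in the striatum in 26 of 29 rats, with a median striatal to cerebellar ratio of 0.283 within a rat and an adjusted p of 1.33e-12 in edgeR. Ranges overlapped through the low end of the cerebellum, where libraries standing apart held the 10 lowest values. With the libraries standing apart left out, the log2 difference was −1.93 ± 0.07.

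Klf9 ranged over 50.9, 145 and 231 CPM in striatal libraries, against 19.8, 151 and 191 CPM in cerebellar libraries. It was higher in the striatum in 17 of 29 rats and lower in 12, with a 95% interval of the log2 difference from −0.16 to 0.49 (adjusted p = 0.359 in edgeR). Leaving out libraries that stood apart gave a difference of 0.016 ± 0.067, with an interval from −0.12 to 0.15. Klf9 is induced by glucocorticoids as well as by T3.

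**Figure D1:**
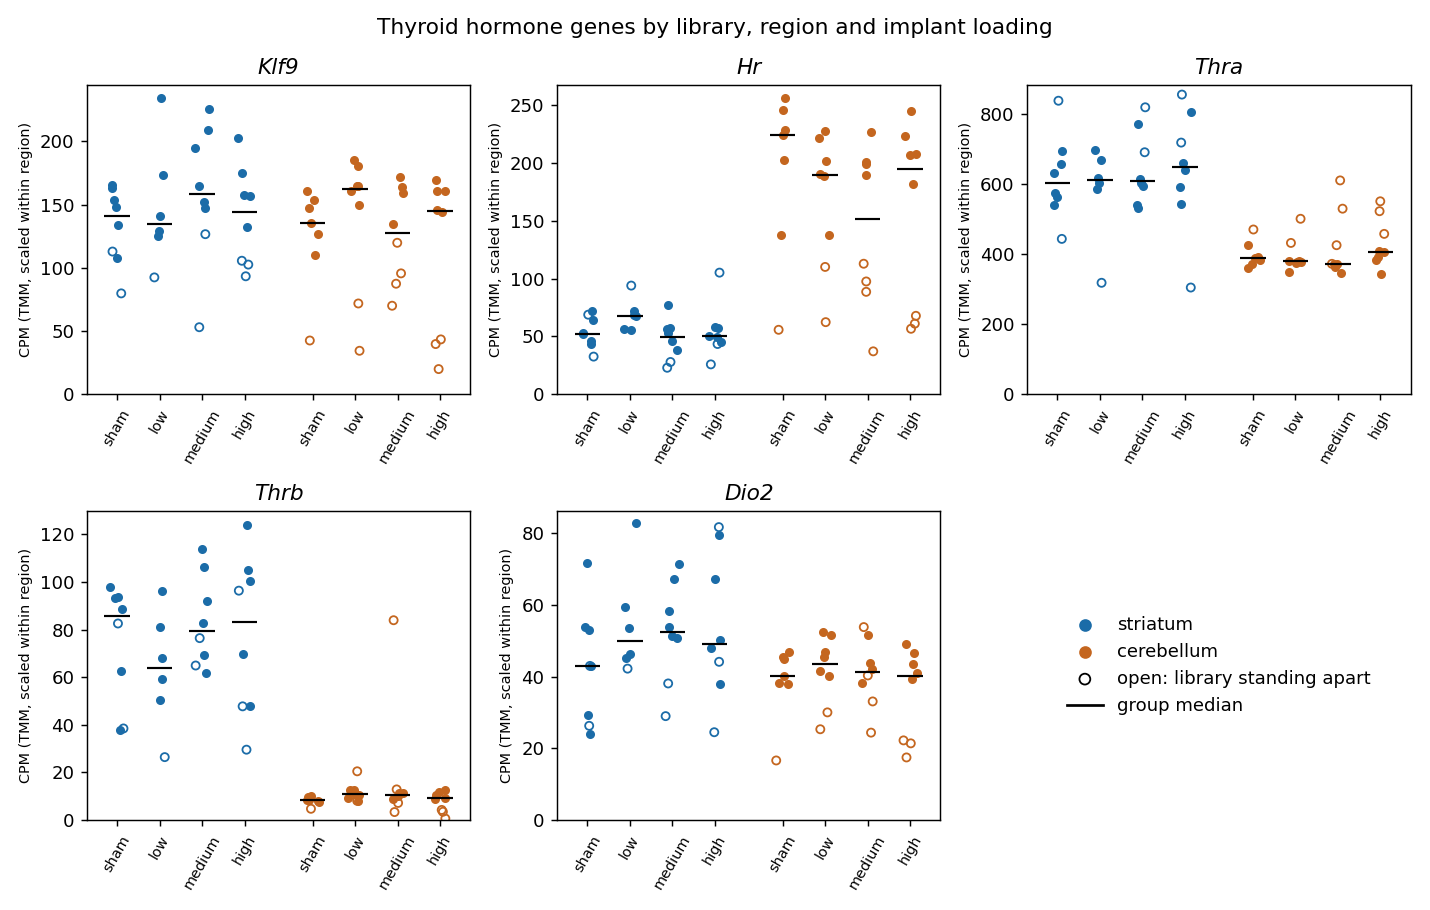
CPM values of the 5 genes by library (points), with the striatum left and the cerebellum right in each panel and loadings from sham to high; black lines are group medians and open points are libraries standing apart. Values are scaled within each region, so levels across regions are not on one scale here. Thrb is far higher in the striatum and Hr lower, as also by median with both regions on one scale. Within each region the 4 loadings overlap for each gene.

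The same regional comparison covered the rest of a pathway list, chosen for function, of 56 genes for transport, deiodination, receptors, coregulators and T3-responsive transcripts. Of 51 tested, 24 were called higher and 16 lower in the striatum, which is 40 in all. Over all genes 71.6% were called, 30.8% higher and 40.8% lower. The list had a median log2 difference of 0.24, against −0.13 over all genes. Among the transporters, Slco1c1, which carries thyroxine across the blood-brain barrier, was higher by 1.13 ± 0.08 and averaged 154 ± 28.6 CPM in striatal libraries (SD, n = 30), against 70.9 ± 20.7 CPM in cerebellar libraries (n = 31). Slc16a10, a monocarboxylate family carrier of T3 and aromatic amino acids, was higher by 1.00 ± 0.21. Crym, a T3-binding protein of the cytosol, was higher by 2.96 ± 0.26.

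The amino acid carriers that also move thyroid hormone went in both directions. Slc7a5 was higher by 0.24 ± 0.08, whereas Slc7a8 was lower by −0.51 ± 0.18 and their shared heavy chain Slc3a2 by −0.25 ± 0.07. Of the 8 transport genes, 5 were called higher and 2 lower, and Ttr was not called at 0.83 ± 0.65 (adjusted p = 0.249 in edgeR). With the animal as a replicate block, Slc7a8 stood at −0.31 and Ttr at 1.94, and the first was no longer called (adjusted p = 0.0947) while the second was (0.00622). Slc3a2 was not called without the libraries standing apart, at −0.071, whereas Ttr was, at 2.31 (adjusted p = 0.00118). The Ttr difference was called as well with DESeq2 (1.55, adjusted p = 0.00147), without animal 59 (1.69, adjusted p = 0.0142) and in sham rats alone (7.42, adjusted p = 0.0128), but stood at −0.051 without animal 17 (adjusted p = 0.945). In sham rats alone Slc16a10 (0.44), Slc7a5 (0.10) and Slc3a2 (−0.36) were not called.

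Of the 5 receptor genes and partners, 4 were called higher in the striatum, Thra and Thrb among them, and none lower. Of all genes 30.8% were called higher and 40.8% lower. Rxrg, a retinoid X receptor of striatal projection neurons, was higher by 4.94 ± 0.28, at 186 ± 96.0 CPM in striatal libraries (SD, n = 30) against 6.02 ± 4.05 CPM in cerebellar libraries (n = 31). Rxra was higher by 0.66 ± 0.09, and Rxrb differed by 0.0011 ± 0.046. Dio3, the enzyme that inactivates T3 and thyroxine, was higher by 1.52 ± 0.38 but near the floor of detection, with medians of 0.748 CPM in the striatum and 0.167 CPM in the cerebellum. Sepsecs and Secisbp2, needed to make selenoproteins such as the deiodinases, were not called at −0.16 ± 0.08 each, but were called lower with no filter on low counts (both −0.17, adjusted p = 0.0481 and 0.0494 in edgeR). Without the libraries standing apart Sepsecs stood at −0.31 and Secisbp2 at −0.30, also called (adjusted p = 1.31e-05 and 8.58e-07). Coregulators had 2 called higher and 4 lower of 11 tested, with a median of −0.28, and T3-responsive transcripts 11 and 11 of 24, with a median of 0.29.

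**Figure D2:**
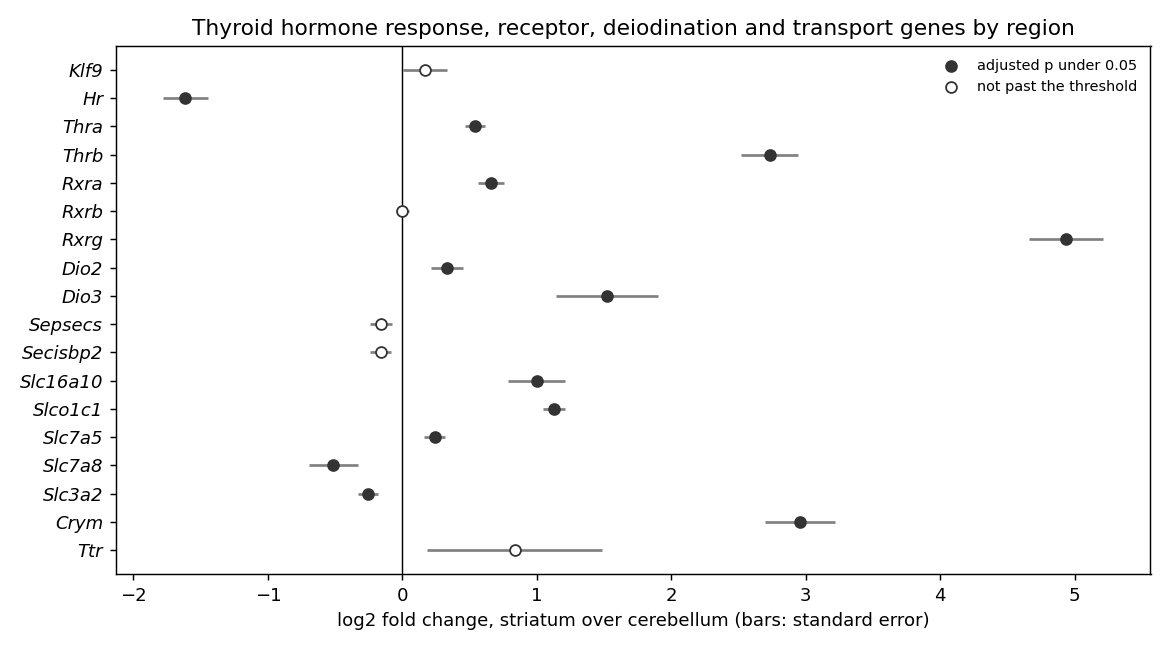
Log2 fold change between striatum and cerebellum (points) with standard errors (bars) for the members and for named receptor, deiodination and transport genes; filled points passed an adjusted p of 0.05 in edgeR. Rxrg, Crym and Thrb lie farthest to the striatal side, and Hr farthest to the cerebellar side.

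Implant loading changed none of the 5 genes past the threshold in either region. No gene of the whole table was called in any single loading against sham or in the trend with loading, a percentage of 0 in each, by edgeR's quasi-likelihood test adjusted over 12267 striatal or 11946 cerebellar genes. At an unadjusted p under 0.05 there were 471, 453 and 141 striatal genes for low, medium and high, and 182, 170 and 1394 cerebellar genes. DESeq2 called 0 striatal genes in these comparisons, and in the cerebellum 0 for low, 0 for medium, 1 for high and 662 for the trend, with no member among them. Each of the comparisons in a region used the same sham libraries, so they are not independent of each other.

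In striatal libraries, Thra had lowest, median and highest values of 443, 602 and 837 CPM at sham, 318, 609 and 696 at low, 530, 608 and 818 at medium and 304, 649 and 854 at high. All 4 groups overlapped, and the lowest Thra values were those of the libraries poor in projection neuron transcripts, high 13, low 20 and sham 17. The log2 differences from sham were −0.09 ± 0.18 at low, 0.06 ± 0.17 at medium and 0.05 ± 0.17 at high. The 95% interval at high ran from −0.29 to 0.39. With the libraries standing apart left out, they were 0.056 ± 0.11, −0.0025 ± 0.10 and 0.087 ± 0.11.

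Cerebellar libraries had Thra at 361, 387 and 470 CPM at sham, 348, 379 and 500 at low, 347, 372 and 610 at medium and 342, 407 and 550 at high. Most libraries lay in a narrow band, and the highest value of each group was in a library standing apart. Differences from sham were −0.0087 ± 0.14, 0.09 ± 0.14 and 0.12 ± 0.14 from low to high, and −0.036 ± 0.061, −0.074 ± 0.068 and 0.019 ± 0.063 without the libraries standing apart. Nr1d1, beside it in the genome, differed from sham at the high loading by 0.05 ± 0.12 in the striatum and by −0.0042 ± 0.12 in the cerebellum, with neither called.

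Thrb in striatal libraries had lowest, median and highest values of 37.7, 85.7 and 97.8 CPM at sham, 26.4, 63.7 and 96.2 at low, 61.6, 79.6 and 114 at medium and 29.5, 83.0 and 124 at high. The groups overlapped, and the spread within a group was wide. Set against sham, the differences were −0.22 ± 0.29, 0.17 ± 0.26 and 0.06 ± 0.26 from low to high, and the interval at high ran from −0.48 to 0.60. Leaving out the libraries standing apart gave −0.15 ± 0.24, 0.15 ± 0.23 and 0.18 ± 0.24.

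Cerebellar Thrb was sparse, with 4.71, 8.41 and 10.2 CPM at sham, 7.89, 10.8 and 20.5 at low, 3.33, 10.6 and 83.9 at medium and 0.616, 9.11 and 12.8 at high. One library set the medium group apart: medium 40 had 83.9 CPM, and the next highest of that group 12.9 CPM. The medium difference from sham was 1.18 ± 0.51 (unadjusted p = 0.0279, adjusted p = 0.999 in edgeR), and without medium 40 it was 0.18 ± 0.37. Medium 40 also had the highest cortical excitatory neuron list of its region (6.69 log2 CPM, against a sham median of 4.37) and a granule cell list of 6.62 (sham median 9.20); their part in the result was not tested.

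Without the cerebellar libraries standing apart (6 sham, 6 low, 4 medium, 5 high) Thrb differed from sham by 0.30 ± 0.13 at low, 0.26 ± 0.15 at medium and 0.31 ± 0.14 at high. Medians in those libraries were 8.47, 10.8, 10.6 and 10.6 CPM from sham to high, and the groups overlapped. Unadjusted p-values in edgeR were 0.0342, 0.0895 and 0.0326, and adjusted ones 0.939, 0.815 and 0.590, so no loading passed. The high loading stood at −0.07 ± 0.51 with all libraries, the reverse direction, with the 3 lowest values of that group, 0.616, 3.45 and 4.23 CPM, included.

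Dio2 in striatal libraries had lowest, median and highest values of 24.04, 42.98 and 71.8 CPM at sham, 42.2, 49.98 and 83.0 at low, 29.0, 52.5 and 71.4 at medium and 24.5, 49.1 and 81.7 at high. Medians of the exposed groups lay above that of sham, while the ranges overlapped. The changes over sham were 0.35 ± 0.25, 0.28 ± 0.24 and 0.33 ± 0.24 from low to high, with intervals that all included 0 and, at high, ran from −0.15 to 0.81. Without the libraries standing apart they were 0.32 ± 0.23, 0.35 ± 0.22 and 0.30 ± 0.23, and the adjusted p was 1 at high in both fits. The astrocyte list, the cell type that makes this enzyme, was lower in sham too, with medians of 8.19, 8.54, 8.30 and 8.37 log2 CPM from sham to high, and its part in the result was not tested.

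In cerebellar libraries Dio2 had 16.6, 40.2 and 46.8 CPM at sham, 25.3, 43.6 and 52.4 at low, 24.4, 41.2 and 53.8 at medium and 17.5, 40.3 and 49.1 at high. Group medians lay within a few CPM, and the lowest values were those of libraries rich in ribosomal protein transcripts. Differences from sham were 0.11 ± 0.23, 0.08 ± 0.23 and −0.14 ± 0.23 from low to high, and 0.15 ± 0.09, 0.068 ± 0.10 and 0.076 ± 0.093 without the libraries standing apart.

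Hr in striatal libraries had lowest, median and highest values of 32.6, 52.5 and 72.4 CPM at sham, 56.0, 67.9 and 94.0 at low, 22.9, 49.7 and 77.4 at medium and 25.9, 50.3 and 105 at high. The low group had no library under 56.0 CPM, yet it overlapped with sham, and medium and high spanned the sham range. Against sham, log2 differences were 0.35 ± 0.24 at low, −0.19 ± 0.23 at medium and 0.0076 ± 0.23 at high. Leaving out the libraries standing apart gave 0.21 ± 0.15, −0.0093 ± 0.14 and −0.084 ± 0.15. The astrocyte list had its highest group median at low (8.54 log2 CPM, against 8.19 at sham), and Hr went with that list over all 30 striatal libraries (rho 0.572, r 0.515, adjusted permutation p 0.00457 and 0.00768; 0.429 to 0.750 by rho within runs of 15 animal numbers). In the 22 libraries not standing apart that relation did not pass (rho 0.523, r 0.351, adjusted permutation p 0.0557 and 0.213), and its part in the result was not tested.

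In cerebellar libraries Hr had 55.8, 224 and 256 CPM at sham, 62.4, 190 and 228 at low, 37.1, 151 and 227 at medium and 56.7, 195 and 245 at high. Median Hr was lower at every loading than at sham, but the ranges overlapped from end to end. Differences from sham were −0.20 ± 0.38, −0.42 ± 0.38 and −0.30 ± 0.38 from low to high. Without the libraries standing apart they were −0.13 ± 0.12, −0.06 ± 0.14 and 0.0064 ± 0.13, and their intervals lay between −0.38 and 0.27.

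Klf9 in striatal libraries had lowest, median and highest values of 79.8, 141 and 165 CPM at sham, 92.4, 135 and 234 at low, 53.03, 158 and 226 at medium and 93.3, 145 and 202 at high. The highest value of each exposed group exceeded every sham library, and the ranges otherwise overlapped. Over sham, the differences were 0.16 ± 0.24, 0.26 ± 0.22 and 0.08 ± 0.22 from low to high. Low and high stood at 0.14 ± 0.16 and 0.18 ± 0.16 without the libraries standing apart, and medium at 0.33 ± 0.15 (unadjusted p = 0.0406, adjusted p = 0.890 in edgeR).

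In cerebellar libraries Klf9 had 42.5, 135 and 161 CPM at sham, 34.4, 163 and 186 at low, 70.0, 127 and 172 at medium and 19.9, 145 and 169 at high. Each group held at least 1 library far below the rest, and all of these stood apart in ribosomal or neuronal transcripts. Differences from sham were 0.15 ± 0.38, 0.0031 ± 0.38 and −0.18 ± 0.38 from low to high. Without the libraries standing apart they were 0.29 ± 0.09, 0.20 ± 0.10 and 0.19 ± 0.09. The unadjusted p at low was then 0.00363, and the adjusted p-values in edgeR were 0.939, 0.815 and 0.590, so none passed.

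**Figure D3:**
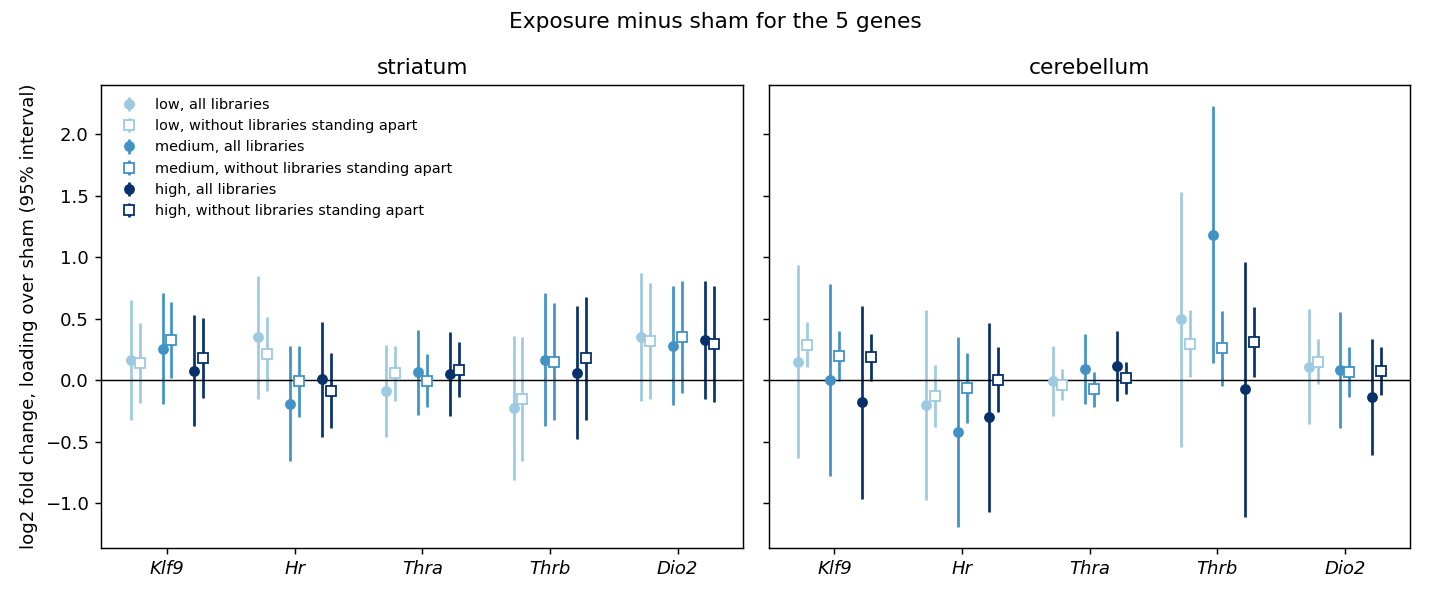
Log2 fold change of each loading over sham with its 95% interval for the 5 genes in the striatum (left) and the cerebellum (right); circles use all libraries and open squares leave out those standing apart. Nearly all intervals include 0, those in the cerebellum shrink without the libraries standing apart, and the cerebellar Thrb value of 1.18 at medium drops to 0.26.

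The high versus sham change of the 5 genes did not pass a test of difference between the regions. The log2 difference of the changes, striatum minus cerebellum, was −0.08 ± 0.21 for Thra, 0.11 ± 0.57 for Thrb, 0.45 ± 0.34 for Dio2, 0.29 ± 0.46 for Hr and 0.24 ± 0.46 for Klf9, with adjusted p-values in edgeR from 0.724 to 0.958. Of all 12616 genes, 0.00793% were called, which was a single gene, Ttr.

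Trends with loading were also small. Slopes per percent of loading in the striatum were 0.010 ± 0.015 for Thra, 0.019 ± 0.024 for Thrb, 0.019 ± 0.022 for Dio2, −0.019 ± 0.021 for Hr and 0.0039 ± 0.020 for Klf9 on the log2 scale. In the cerebellum they were 0.013 ± 0.012, −0.012 ± 0.045, −0.017 ± 0.020, −0.026 ± 0.033 and −0.025 ± 0.034 in the same order of genes. No slope was called in either region without the libraries standing apart, where slopes lay between −0.019 and 0.027 in the striatum and between 0.0012 and 0.020 in the cerebellum. When all 4 loadings were compared in a single test, 0.0245% of striatal genes and 0 cerebellar genes were called, where 1236 cerebellar genes had an unadjusted p under 0.05 and DESeq2 called 153. Thrb in the cerebellum had an unadjusted p of 0.0487 and an adjusted p of 0.481 there.

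Across the pathway list, 49 of 56 genes were tested in each region and none passed in a loading against sham in edgeR. DESeq2 called Ttr in the cerebellum at high. In the striatum the median log2 difference of the list was 0.08, 0.05 and 0.05 from low to high, against −0.0013, 0.016 and 0.018 over all genes, and 34 of 49 were above 0 at each loading. In the cerebellum it was −0.0087, −0.05 and −0.07, against −0.025, −0.0011 and −0.026 over all genes, with 24, 23 and 19 of 49 above 0. Trend slopes in the cerebellum were below 0 for 36 of 49 genes, with a list median of −0.016, against −0.0041 over all genes. The share of all genes on either side of 0 was not counted for these comparisons.

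Among the smallest p-values on the list at the high loading were those of Ttr, Slc7a5 and Rxra in the striatum and of Ttr, Pcp2, Nrgn and Slc16a10 in the cerebellum. In the striatum Slc7a5 differed by 0.20 ± 0.12 and Rxra by 0.21 ± 0.15. In the cerebellum Pcp2, a Purkinje cell transcript, differed by 1.51 ± 0.68, Nrgn, a calmodulin-binding protein of forebrain neurons, by −3.08 ± 1.48 and Slc16a10 by −0.52 ± 0.34, with adjusted p-values from 0.417 to 0.566 in edgeR. Pcp2 stood at −0.42 without the libraries standing apart.

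At the low and medium loadings the list's smallest p-values were likewise short of the threshold. For low, these were Ttr (−5.46), Slc7a5 (0.29), Mbp of myelin (0.40) and the calcium buffer Calb1 (−0.39) in the striatum, and Mbp (1.08), Mag of myelin (0.93), the growth factor Ntf3 (−0.64) and Rxrb (−0.13) in the cerebellum. For medium, they were Ttr (−6.72), Slco1c1 (0.30), the clock factor Dbp (0.39) and the growth factor Bdnf (−1.65) in the striatum. In the cerebellum they were Thrb, Crym (1.23), Slc16a10 (−0.49) and Ntf3 (−0.66), with Thrsp, a T3-induced lipogenic gene, at 1.62. Adjusted p-values in edgeR ran from 0.276 to 1 among them.

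Single cerebellar libraries carried several of these values. The oligodendrocyte list, which holds Mbp and Mag, averaged 9.90 log2 CPM in low 22, against a sham median of 7.27, and without low 22 the low differences were 0.16 for Mbp and 0.30 for Mag. Leaving out all cerebellar libraries standing apart gave −0.14 for Mbp and 0.019 for Mag. For medium, Crym stood at 0.46 and Thrsp at 1.203 without medium 40, and at −0.084 and −0.40 without the libraries standing apart.

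Ttr had a striatal difference of −6.17 ± 1.37 at high (adjusted p = 0.644 in edgeR) and was called in the test over all 4 loadings (adjusted p = 0.0266). Median Ttr was 23.1 CPM in high striatal libraries, against 21.7 CPM in sham ones, and sham 17 alone had 11769 CPM. The next highest sham library was sham 48, with 981 CPM and a choroid plexus list of 3.80 log2 CPM, while the other 6 had 1.93 to 37.4 CPM. Without sham 17 the difference was −2.79 and no striatal gene was called in the test over all 4 loadings. Cerebellar Ttr differed by 7.07 ± 1.86 at high (adjusted p = 0.417 in edgeR), and DESeq2 called it at 5.17 (adjusted p = 0.000491). In that group high 59 had 8940 CPM, and without that library the edgeR difference was 3.55. High 28 with 453 CPM and high 13 with 246 CPM were then the highest, above all sham libraries, of which sham 48 was highest at 51.6 CPM. The choroid plexus list averaged 2.14 log2 CPM in high 28 and 3.29 in high 13, against a highest cerebellar sham value of 1.54. The choroid plexus list, which holds Ttr itself among markers of that secretory epithelium, averaged 7.84 log2 CPM in striatal sham 17 (sham median 1.02) and 4.46 in cerebellar high 59 (sham median 0.931); their part in the result was not tested.

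Across libraries of the striatum, members moved with cell type lists. The share of all genes that follow these lists as closely was not counted in either region. The relations are therefore not shown to be particular to these genes. In the 22 striatal libraries left after those standing apart were removed, Thrb rose with the projection neuron list (Spearman's rho 0.701, Pearson's r 0.788, adjusted permutation p 0.00783 and 0.0015). Klf9 did likewise (rho 0.745, r 0.739, adjusted permutation p 0.003 and 0.00163), while Thra fell with the same list (rho −0.542, r −0.532, adjusted permutation p 0.0476 and 0.0417). The p-values were two-sided, from 100000 permutations that shuffled libraries without regard to loading or animal number. They were adjusted over 50 relations, separately for rho and r, and separately for all libraries and those not standing apart. Leaving out the 2 libraries farthest from the median gave r of 0.720 for Thrb, 0.627 for Klf9 and −0.529 for Thra. Over all 30 striatal libraries Thrb (rho 0.566, r 0.713) and Klf9 (rho 0.612, r 0.513) kept the direction and passed. Thra did not: its r was 0.691, of the opposite sign and past the threshold (adjusted permutation p 0.00205), and its rho was −0.0051 (adjusted permutation p 0.979).

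Dio2 rose with the astrocyte list in the same 22 striatal libraries (rho 0.631, r 0.729, adjusted permutation p 0.0222 and 0.00192), with r of 0.477 without the 2 farthest. The astrocyte list does not include Dio2. Thra also rose with it (rho 0.573, r 0.582, adjusted permutation p 0.0396 and 0.0316), and Thra and Dio2 rose together (rho 0.560, r 0.529, adjusted permutation p 0.045 and 0.0417). Thrb had rho −0.583 and r −0.499 with the astrocyte list, and of its adjusted permutation p-values, 0.0385 for rho passed and 0.0613 for r did not. Over all 30 libraries Dio2 kept its relation with the astrocyte list (rho 0.616, r 0.699, adjusted permutation p 0.00182 and 4.5e-05, the raw p of r being 1e-05, the smallest the permutations can give). The other relations did not pass there: rho was 0.0456 for Thra and −0.302 for Thrb with the astrocyte list, and 0.248 for Thra with Dio2 (adjusted permutation p 0.891, 0.169 and 0.273), and r was −0.0657, −0.251 and 0.161.

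Ribosomal protein transcripts went with the receptor genes in opposite directions. In those striatal libraries Thra rose with them (rho 0.765, r 0.776, adjusted permutation p 0.003 and 0.0015), and Thrb fell (rho −0.656, r −0.745, adjusted permutation p 0.013 and 0.00163). Klf9 fell as well (rho −0.586, r −0.566, adjusted permutation p 0.0385 and 0.0316). Leaving out the 2 farthest libraries gave r of 0.798 for Thra, −0.551 for Thrb and −0.389 for Klf9. Over all 30 libraries Thra kept the relation (rho 0.852, r 0.697), Thrb did not pass (rho −0.221, r −0.156, adjusted permutation p 0.322 and 0.467) and Klf9 passed by r only (rho −0.273, r −0.437, adjusted permutation p 0.224 and 0.0276). Since libraries were removed for extreme values of these lists, the remaining range of the lists was fixed in part by that choice.

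By runs of 15 animal numbers, which may or may not match the cohorts, the same relations were computed over all striatal libraries of a run (7 or 8 each). For Dio2 with the astrocyte list, Spearman's rho was −0.179, 0.881, 0.643 and 0.714 in the 4 runs, so 1 run went the other way. The rho of Thra with ribosomal protein transcripts lay between 0.691 and 1, that of Thrb with projection neurons between 0.179 and 0.619, and that of Klf9 with projection neurons between 0.429 and 0.952. For Thra with the neuron list it lay between −0.643 and 0.619, and for Thrb with ribosomal transcripts between −0.571 and 0.214, so these did not hold in every run. Klf9 with ribosomal transcripts (−0.762 to 0.524), Thra with Dio2 (−0.250 to 0.571) and Thra with the astrocyte list (−0.310 to 0.143) did not either, while Thrb with the astrocyte list lay between −0.679 and −0.179.

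**Figure D4:**
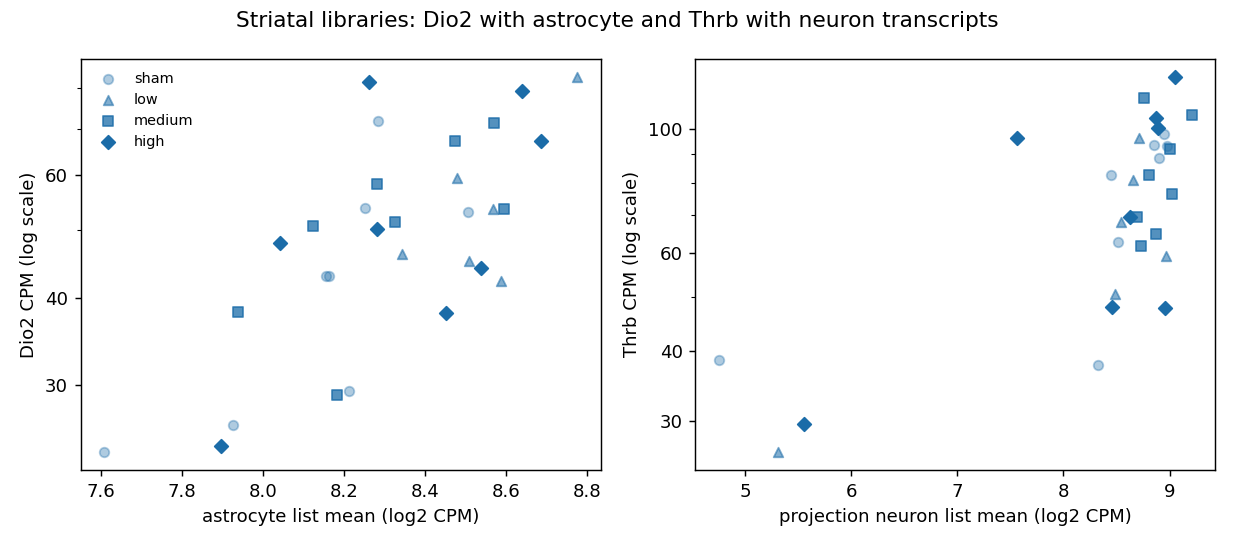
Striatal libraries: CPM on a log scale of Dio2 against the astrocyte list mean (left) and of Thrb against the projection neuron list mean (right), with symbols by loading. Dio2 climbs with the astrocyte list, and the 3 libraries at 5.56 or less on the neuron list, high 13, low 20 and sham 17, are among the 4 lowest for Thrb.

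In the cerebellum the relations rested largely on the libraries standing apart. These included the 9 lowest Klf9 values and the 8 lowest Dio2 values, among them high 43 with 19.9 and 17.5 CPM and a ribosomal list of 11.7 log2 CPM, against sham medians of 135 and 40.2 CPM and a list median of 7.46. The same library had the lowest Thrb, at 0.616 CPM. Among the 21 other libraries Thrb fell with ribosomal protein transcripts (rho −0.562, r −0.645, adjusted permutation p 0.0466 and 0.0018; r −0.522 without the 2 farthest), and over all libraries of a run rho lay between −0.750 and −0.238. In the same 21 libraries 4 further relations passed by r only. These were Hr with the granule cell list (r 0.730, adjusted permutation p 0.00871), with ribosomal transcripts (r −0.606, 0.0402) and with astrocytes (r −0.559, 0.0408), and Thra with ribosomal transcripts (r 0.557, 0.0408). Their rho values were 0.392, −0.133, −0.313 and 0.397, none past the threshold, and r without the 2 farthest libraries was 0.123, 0.412, −0.262 and 0.369. Dio2 and the astrocyte list did not pass there (rho 0.0156, r 0.058, adjusted permutation p 0.967 and 0.926). Whether RNA quality or tissue makeup set the values of the libraries standing apart was not tested.

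**Figure D5:**
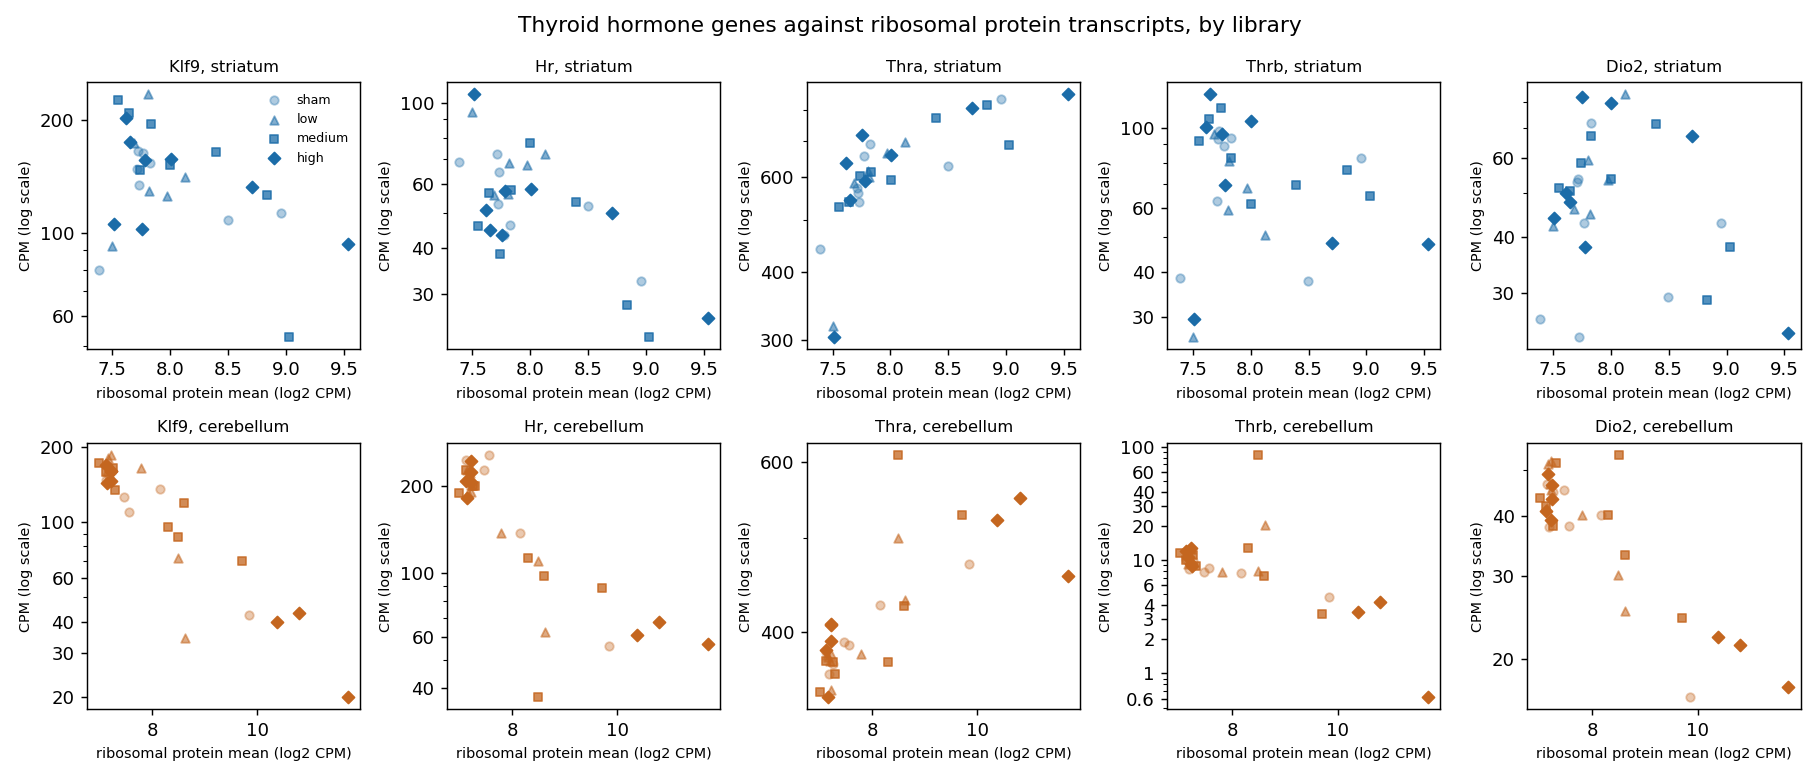
CPM values of the 5 genes on a log scale against the mean of ribosomal protein transcripts in log2 CPM, by library, with the striatum in the upper row and the cerebellum in the lower and symbols by loading. Thra climbs with the list in both regions. In the cerebellum Klf9, Hr and Dio2 drop in the libraries of highest ribosomal level. These are high 43 (11.7), high 28 (10.8) and high 59 (10.4), then sham 48 (9.84) and medium 24 (9.71).

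The genes with the pattern most like each member were taken by Spearman's rho of log2 CPM, as a description. In 22 striatal libraries these were Psd (0.915), Arhgdia and Pdzd4 for Thra, Slmap (0.892), Cdh10 and Arih1 for Thrb, and Snph (0.901), Agap2 and Cxcl12 for Dio2. For Hr they were Cyp3a9 (0.887), Slc16a1 and Mcam, and for Klf9 Mat2a (0.855), Ypel2 and Pde10a, the last a phosphodiesterase of projection neurons that is on the neuron list. With all 30 striatal libraries the nearest were Psd (0.956) for Thra, Cobl (0.915) for Thrb, Slc1a3 (0.911) for Dio2, Bcas1 (0.905) for Hr and Pde10a (0.919) for Klf9. Slc1a3, an astrocyte glutamate transporter, is on the astrocyte list, while the genes named for Dio2 in the 22 libraries are not.

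In 21 cerebellar libraries the nearest were Msrb2 (0.832), mrpl9 and Sf3a2 for Thra, and Taok1 (0.847), Msmp and Srgap3 for Thrb. For Dio2 they were Zfp322a (0.674), Smc1a and Sorcs1, for Hr Tle2 (0.919), Inpp5j and Itga7, and for Klf9 Gna13 (0.814), Polr3g and Slc8b1. Itga7, an integrin subunit, is also on the list of T3-responsive transcripts, and its rho with Hr was 0.897. No gene was among the 3 nearest of the same member in both regions.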

How the data were processed

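The authors deposited whole-number read counts per gene in 1 table per region, which were the values analysed. HISAT2, FastQC and the rn6 build are named in the submitters' processing notes. Of the counting tool, its strand setting and the versions, each was not given in the sources used here. The lowest gene total in each table was 10 reads, so sparser genes are not analysed here. Gene IDs were matched to symbols through RefSeq (14163 of 14231 striatal and 14063 of 14129 cerebellar IDs), and promoter windows come from RefSeq on GRCr8, for which no coordinates were converted.

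Counts were scaled by TMM and filtered with filterByExpr in edgeR 4.0.16 (limma 3.58.1, R 4.3.3), then fitted by robust quasi-likelihood per region (4 groups) or over all 61 libraries (8 groups). Levels by loading are CPM scaled within a region, those by region CPM scaled over both. Lists are library means of log2 CPM with a prior count of 2. DESeq2 1.42.0, RLE factors, other filters, a run block, list covariates, leaving out each library and leaving out those standing apart were alternatives, and 2 settings without animals 17 and 59 were chosen after seeing the data. Correlations used numpy 2.4.6 and scipy 1.17.1. A trial of the code used simulated counts, and its outcome is not reported here. No conclusion is drawn from it on how the tests behave with libraries standing apart. No pair of libraries was identical.

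The members and lists were chosen with earlier results of these data known, as was the GC box. The text names the 5 members, Nr1d1, list genes past the threshold or else the 2 of smallest p per direction and loading, regional transport, deiodination and receptor genes, and the 3 genes most like each member; some list genes that enter the counts are not reported here by name. Genes with too few reads to be tested included Dio1 and Aldh1a3 in both regions, Ntf3 in the striatum and Dio3 in the cerebellum, and Ncoa3, Ep300 and Rora are not analysed here. Animal numbers in the titles name the rat, so both libraries of a number were taken as paired. Deviations from group means of same-numbered libraries had a median correlation of 0.345 over 29 rats (−0.240 to 0.818), of which 21 were over 0.1. The same was not computed for libraries of different rats, so these values do not test the pairing.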

Additional observations from a re-analysis of the deposited data

Results flagged for a closer look

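Single libraries lay far from the rest of their group for 6 of 40 member, region and loading groups checked. For normally distributed values, chance alone would flag about 1 in 20 groups. The genes were read in the same libraries, so the groups are not independent and an excess over that rate cannot be measured. In the striatum Hr was 105 CPM in high 13, whose next highest library had 57.9 CPM, and Thra was 318 CPM in low 20, whose next lowest had 585 CPM. In the cerebellum Klf9 was 42.5 CPM and Dio2 16.6 CPM in sham 48, next to 110 and 38.0 CPM. Cerebellar Thrb was 20.5 CPM in low 22 and 83.9 CPM in medium 40, next to 12.6 and 12.9 CPM. All of these libraries stood apart in ribosomal or neuronal transcripts.

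The high versus sham change of Ttr differed between the regions by −13.25 on the log2 scale (striatum minus cerebellum, adjusted p = 0.00744 in edgeR). With the animal as a replicate block it was −5.06 (adjusted p = 0.869), without animal 17 it was −9.71 (0.284) and without animal 59 it was −9.81 (0.167).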

How the results depend on the processing

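No member passed the threshold in a single loading against sham under any of 1125 alternative values, where the smallest adjusted p was 0.468. Of those 30 member differences, 12 kept their direction throughout. The trend and the test for any difference were outside that count. In the cerebellum DESeq2 called no member in either, with smallest member adjusted p-values of 0.4 and 0.985. Without cerebellar medium 24 the smallest in edgeR's test for any difference was 0.253, with no member called. In the regional comparison Thrb, Thra and Hr kept direction and call in each alternative. With animal number as a replicate block (29 rats), 8906 genes differed by region, against 9030 without it, and 5071 did in sham libraries alone.

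The number of striatal genes called for any difference was 3, against 0 with DESeq2, the run block, list covariates or libraries standing apart left out, 11 with no filter, 10 at a mean CPM of at least 1, and 0 to 6 leaving out 1 library. In the cerebellum DESeq2 called 1 gene at high, which was Ttr, 662 for the trend and 153 for any difference. Leaving out 1 library gave 0 to 1205 for the trend, the highest without sham 48, and 0 to 3 for any difference. For the regional difference of the high change, 1 gene became 4 (DESeq2), 6 (no filter) or 0 (replicate block, libraries standing apart left out, or either animal 17 or 59 left out).

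Without the libraries standing apart these log2 differences reversed in the striatum: Thra at low 0.056 and medium −0.0025, and Hr at high −0.084. In the cerebellum they were Mbp at low −0.14, and at medium Thra −0.074, Crym −0.084, Thrsp −0.40 and Slc16a10 0.032. At high they were Klf9 0.19, Hr 0.0064, Thrb 0.31, Dio2 0.076 and Pcp2 −0.42. The regional difference of the high change became −0.066 for Hr, 0.090 for Thra and −0.11 for Thrb. Spearman's rho reversed in the striatum for Thrb and Dio2 (−0.149), astrocytes and Klf9 (−0.261) and ribosomal proteins and Hr (0.269). In the cerebellum it reversed for Klf9 with Hr (−0.326) and Dio2 (−0.0104), and for Hr with Thra (0.349), Thrb (−0.0818) and Dio2 (−0.227). It also reversed for astrocytes with Thra (0.181) and Thrb (−0.0844), and for granule cells with Dio2 (−0.0584).

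With list covariates striatal Thra became −0.10 at medium and −0.020 at high, and cerebellar values became −0.0056 for Thrb at low, and 0.031 for Klf9, 0.0052 for Hr, 0.11 for Thrb, 0.072 for Dio2 and −0.17 for Pcp2 at high. The run block gave 0.018 for cerebellar Thrb at high. By region, Rxrb became −0.00076 without the libraries standing apart, −0.010 with no filter and −0.098 in sham alone, and Ttr −0.051 without animal 17. The cause of these reversals was not tested.

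Leaving out 1 library, striatal ranges that crossed 0 at high were −0.20 to 0.11 for Hr, −0.067 to 0.18 for Thrb, −0.020 to 0.16 for Thra and −0.014 to 0.15 for Klf9. At low they were −0.15 to 0.029 for Thra and −0.021 to 0.26 for Klf9. In the cerebellum they were −0.22 to 0.089 for Thrb at high; −0.065 to 0.024 for Thra, −0.0011 to 0.30 for Klf9 and −0.026 to 0.19 for Dio2 at low; and −0.15 to 0.091 for Klf9, −0.0046 to 0.13 for Thra and −0.051 to 0.16 for Dio2 at medium. With 6 to 8 libraries a group, the 95% interval at high ran from −0.48 to 0.60 for striatal Thrb and from −1.11 to 0.96 for cerebellar Thrb.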
